A study of Mus musculus with 16 samples.

Results

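The thick ascending limb genes described here were Umod, Slc12a1, Kcnj1, Bsnd, Casr and Ptger3. They were taken by symbol from a table of transcript levels in whole mouse kidney, and each matched 1 entry, so the set was 6 of 23935 gene symbols. RNA had been sequenced in 16 libraries of whole kidney from WT mice, 4 in each group: cisplatin with NMN, cisplatin with NR, cisplatin alone, and PBS. Cisplatin, a chemotherapy drug that binds DNA, is toxic to tubule cells. From NMN, nicotinamide mononucleotide, and from NR, nicotinamide riboside, cells can make the cofactor NAD. Per the labels, a precursor was given by injection ahead of the cisplatin injection, and kidneys were taken 3 days after cisplatin. The sources used here give no dose, strain, sex or age. Separate animals per library are not stated, so p-values here reflect only how far these samples spread, and that spread may be technical.

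The thick ascending limb is the part of the loop of Henle that takes up salt without water and so dilutes the urine. Its cells bring in sodium, potassium and chloride through the cotransporter NKCC2, send potassium back to the lumen through the channel ROMK, and pass chloride on to the blood through chloride channels that need the subunit barttin. The voltage this sets up draws calcium and magnesium between the cells, while the calcium-sensing receptor and the prostaglandin E2 receptor EP3 restrain the transport. The same cells make uromodulin, the most abundant protein of normal urine. The genes are not equally specific to the segment: Kcnj1 is also expressed in principal cells of the collecting duct, Bsnd in the distal convoluted tubule and in intercalated cells, Casr in other tubule segments, and Ptger3 in the collecting duct and in adipocytes.

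Levels were in TPM, transcript abundance scaled to the same total in each library. Read depth cannot be recovered from TPM and is unknown. A gene was tested if it reached 1 TPM in at least 4 libraries, which 12960 genes did, and it counted as called where its limma adjusted p on log2(TPM + 1) was below 0.05, a scale that understates changes of low genes. All 6 limb genes were tested. Casr passed the minimum through the other 3 groups, since its cisplatin libraries all lay below 1 TPM. The median gene moved by 0.27 on this log2 scale in cisplatin against PBS, by -0.23 in NMN against cisplatin and by -0.20 in NR against cisplatin, and changes below are read beside these shifts. PBS 1, cisplatin 1 and cisplatin 3 stood apart most from their groups, with the lowest array weights (0.566, 0.675 and 0.679), and results that rest on them are also given without them. The parathyroid genes Pth and Gcm2, checked because that gland also makes Casr, were listed at 0 in all 16 libraries.

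Umod was by far the most abundant of the 6 in every group, and the order of the mean levels was nearly the same throughout. With NMN the means were 472 TPM for Umod, 72.9 for Slc12a1, 39.8 for Kcnj1, 15.9 for Bsnd, 5.62 for Ptger3 and 2.96 for Casr. In PBS kidneys they were 568, 89.6, 50.8, 20.4, 7.40 and 3.76 TPM in the same gene order, and the NR group kept that order too. Slc12a1 and Kcnj1 had overlapping ranges in all 4 groups and cannot be ranked against each other, and the same holds for Ptger3 and Casr with NMN, with NR and with PBS. With cisplatin alone Bsnd (6.21 TPM) and Ptger3 (6.06 TPM) overlapped instead, and Casr (0.488 TPM) lay below both.

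**Figure D1:**
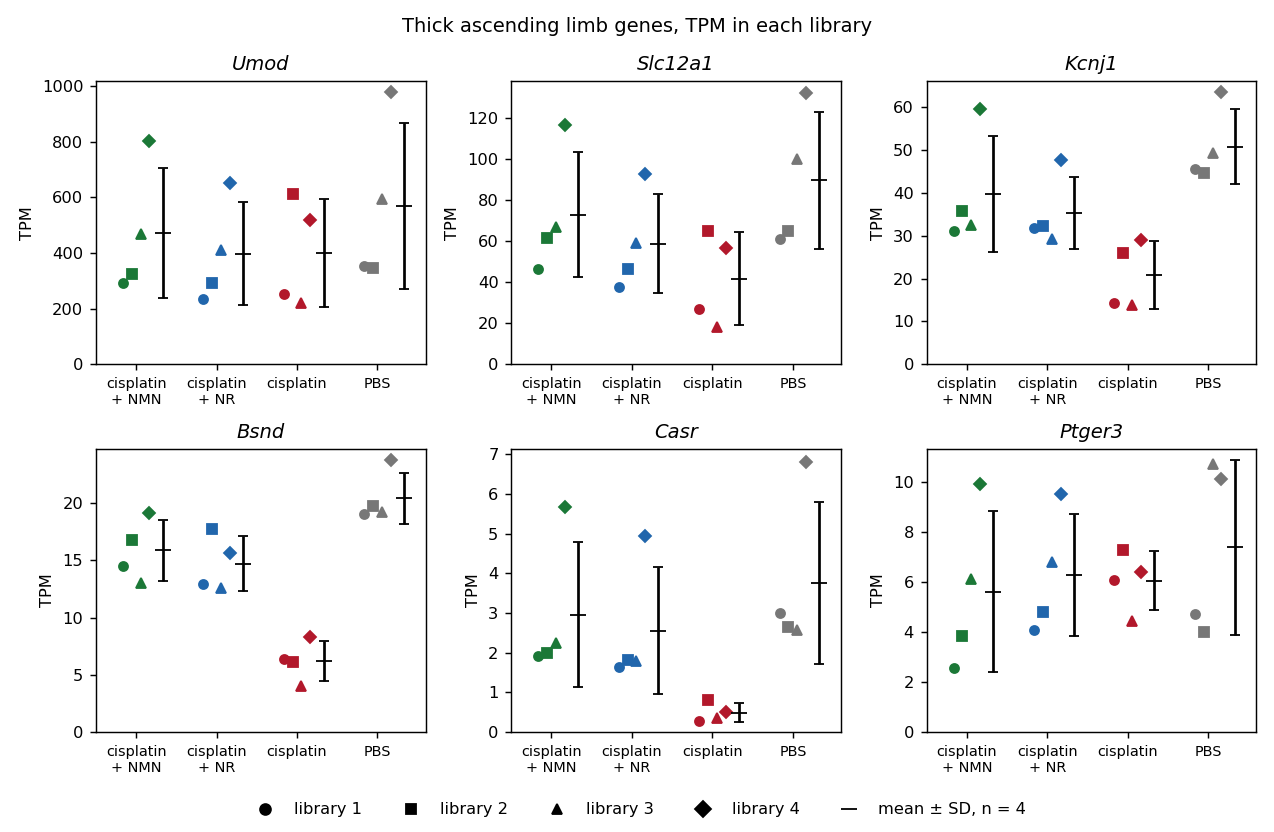
TPM of the 6 genes in each of the 16 libraries, with cisplatin and NMN, cisplatin and NR, cisplatin alone and PBS from left to right. Marker shape gives the library number, and bars are the mean ± SD of 4 libraries. The cisplatin libraries lie below all PBS libraries for Kcnj1, Bsnd and Casr, and overlap them for Slc12a1, Umod and Ptger3.

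The salt transport genes and the calcium-sensing receptor gene were lower in cisplatin kidneys than in PBS kidneys, while the changes of the uromodulin and EP3 transcripts did not pass the test. Against PBS, 4 of the 6 genes fell: Slc12a1, Kcnj1, Bsnd and Casr. Of all tested genes, 18.6% were called lower and 40.7% higher, or 59.4% in either direction. After median-of-ratios scaling, which sets the median gene near 0, 28.5% were called lower and 29.4% higher, and the same 4 limb genes were called. The median change of the 6 genes was -1.25 on the log2 scale, beside 0.27 for all genes.

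Slc12a1 encodes NKCC2, the target of loop diuretics (GRCm38, chromosome 2, 125152505 to 125230002, plus strand). The level was 26.7, 65.2, 18.3 and 56.5 TPM in cisplatin libraries 1 to 4, against 61.0, 65.0, 99.97 and 132 TPM in PBS libraries 1 to 4. Cisplatin 2 reached the lower PBS libraries, so the groups overlapped, and cisplatin 1 and 3 were the lowest of the 16 libraries. The mean fell to 41.7 ± 22.7 TPM with cisplatin, against 89.6 ± 33.5 with PBS (SD, n = 4 each), a log2 change of -1.19 (SE 0.401, limma adjusted p = 0.0181). This call rested on single libraries: the adjusted p was 0.0605 without PBS 4, 0.0534 without cisplatin 1 and 0.0617 without cisplatin 3, and 0.191, with a log2 change of -0.64, without PBS 1, cisplatin 1 and cisplatin 3 together.

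Kcnj1 encodes ROMK, which returns potassium to the lumen so that NKCC2 can keep running (chromosome 9, 32372493 to 32399197, plus strand). Its level was 14.2, 26.0, 13.8 and 29.1 TPM with cisplatin, against 45.5, 44.7, 49.5 and 63.6 TPM with PBS. All cisplatin libraries lay below all PBS libraries. The cisplatin mean of 20.8 ± 7.90 TPM was 40.9% of the PBS mean of 50.8 ± 8.78 (SD, n = 4 each), and the log2 change was -1.31 (SE 0.245, limma adjusted p = 0.000179). Groups also did not overlap, with cisplatin the lower, in 15.6% of all tested genes.

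Bsnd encodes barttin, the subunit without which the chloride channels of the blood side do not reach the membrane (chromosome 4, 106483456 to 106492283, minus strand). Libraries 1 to 4 measured 6.38, 6.15, 4.03 and 8.29 TPM with cisplatin, against 19.0, 19.8, 19.2 and 23.7 TPM with PBS. The highest cisplatin library was far below the lowest PBS library. Cisplatin averaged 6.21 ± 1.74 TPM and PBS 20.4 ± 2.23 (SD, n = 4 each), with a log2 change of -1.60 (SE 0.176, limma adjusted p = 3.58e-07). Among the 6 genes Bsnd varied least within PBS, with a coefficient of variation of 10.9%.

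Casr encodes the calcium-sensing receptor of the blood side of the cell, which lowers salt and calcium uptake when blood calcium is high (chromosome 16, 36493696 to 36562141, minus strand). The cisplatin libraries measured 0.28, 0.81, 0.35 and 0.51 TPM, against 3.00, 2.65, 2.58 and 6.81 TPM in PBS. No cisplatin library came near the lowest PBS library, and PBS 4 stood well above the other PBS libraries. The mean was 0.488 ± 0.236 TPM with cisplatin, 12.97% of the PBS mean of 3.76 ± 2.04 (SD, n = 4 each). The log2 change was -1.61 (SE 0.315, limma adjusted p = 0.000257), and with a pseudocount of 0.1 in place of 1 it was -2.67. In TPM this was the steepest relative fall of the 6 genes. Casr entered the test only through the groups where it was high. Its calls between cisplatin and any other group, here and below, therefore say nothing beyond these values.

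Ptger3 encodes EP3, the receptor through which prostaglandin E2 lowers cyclic AMP and restrains NKCC2 (chromosome 3, 157566892 to 157645888, plus strand). It measured 6.08, 7.29, 4.46 and 6.39 TPM with cisplatin, against 4.74, 4.02, 10.7 and 10.1 TPM with PBS. PBS split into a low and a high pair of libraries, and 3 of the 4 cisplatin libraries lay between these pairs. The log2 change was -0.17 with a 95% interval of -0.88 to 0.54 (limma adjusted p = 0.693), and its sign turned without PBS 3 (0.03) or PBS 4 (0.0025). Fat RNA moved with cisplatin: 6 of the 8 tested adipose genes were higher and 1, Pck1, which the tubule also makes, was lower. Summed over 8 adipose genes without Pck1, the level ranged over 210.1 to 403 TPM with cisplatin, against 25.2 to 124 TPM with PBS. Adipocytes make Ptger3, and the part of fat RNA in the Ptger3 values was not tested.

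Umod encodes uromodulin (chromosome 7, 119462711 to 119479282, minus strand). Its level was 251, 613, 220.6 and 517 TPM with cisplatin, against 354, 344.5, 595 and 979.55 TPM with PBS. The highest library was 2.78 times the lowest with cisplatin and 2.84 times with PBS, and the groups overlapped. Cisplatin averaged 401 ± 194 TPM and PBS 568 ± 298 (SD, n = 4 each), and the log2 change of -0.50 (95% interval -1.47 to 0.47, limma adjusted p = 0.359) did not pass the test. The interval includes both no change and a fall as large as that of Slc12a1. Antisense genes overlap Umod (Gm44588) and Slc12a1 (Gm14002) on the other strand, and Gm25902 overlaps Casr on its own strand. The sources used here do not give the strand setting of the counting, so reads of these overlapping genes cannot be told apart.

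**Figure D2:**
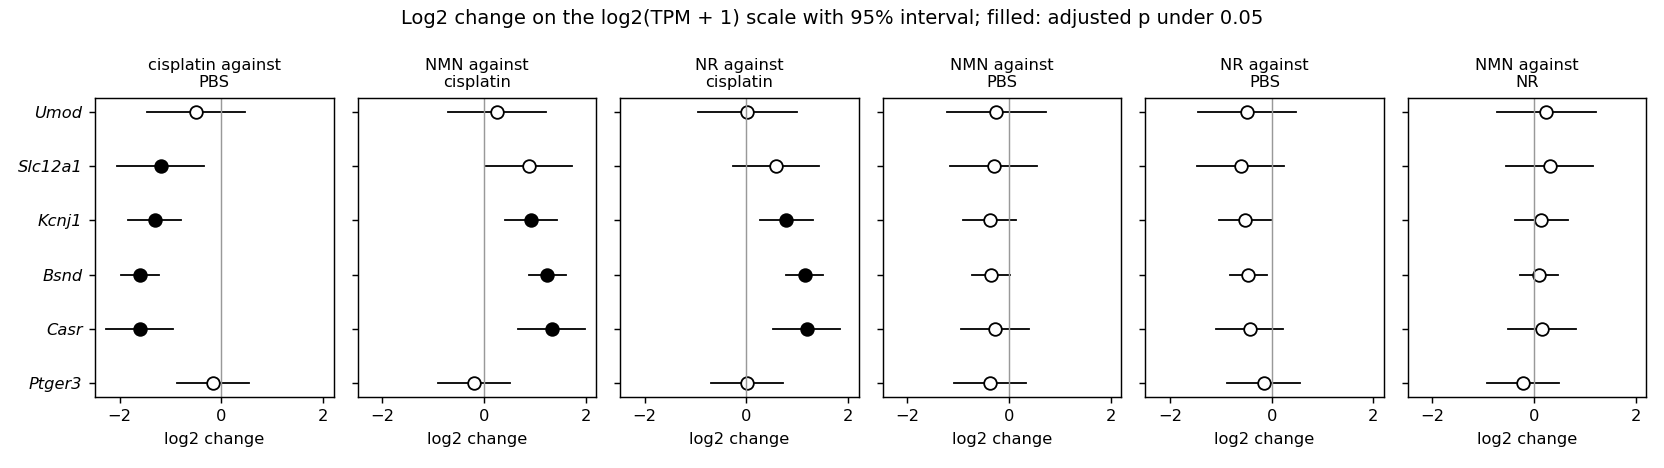
Log2 change of the 6 genes in the 6 comparisons on the log2(TPM + 1) scale, as the first-named group of each panel over the second; NMN and NR stand for cisplatin with that precursor. Points are estimates and lines 95% intervals of the limma fit, and filled points have an adjusted p under 0.05. Slc12a1, Kcnj1, Bsnd and Casr are filled for cisplatin against PBS, Kcnj1, Bsnd and Casr for each precursor against cisplatin, and none in the other 3 panels.

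In whole kidney RNA, fewer limb cells and less RNA per limb cell cannot be told apart. Ratios to Slc12a1 in the same library, chosen after seeing the data, did not overlap between cisplatin and PBS for 3 of the other 5 genes, though none passed correction. The ratio of Umod to Slc12a1 was 9.42, 9.42, 12.1 and 9.15 with cisplatin, against 5.80, 5.30, 5.95 and 7.40 with PBS. Every cisplatin library had more Umod per Slc12a1 than every PBS library, 1.64 times as much on average. Casr per Slc12a1 was 0.303 times the PBS value with cisplatin, and Ptger3 per Slc12a1 was 2.06 times the PBS value, both without overlap. For these 3 ratios the two-sided exact permutation p was 0.0286, the smallest that 4 against 4 libraries allow, and 0.0952 after Benjamini-Hochberg adjustment over the 30 ratio tests. Slc12a1 itself changed by -1.19 on the log2 scale, while the median gene moved by 0.27. A ratio to Slc12a1 therefore rises for any gene that fell less than Slc12a1. The share of all tested genes whose ratio did not overlap was not computed, here or in the other comparisons.

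Kcnj1 per Slc12a1 averaged 0.551 ± 0.149 with cisplatin and 0.602 ± 0.134 with PBS (SD, n = 4 each; exact permutation p = 0.657). Bsnd per Slc12a1 averaged 0.175 ± 0.0669 with cisplatin and 0.247 ± 0.0708 with PBS (exact permutation p = 0.2). Both ratios overlapped between the groups, which does not show that they were equal. Casr is low enough for the pseudocount to matter: with 1 TPM added to both genes its log2 ratio difference was -0.42 in place of -1.72.

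**Figure D3:**
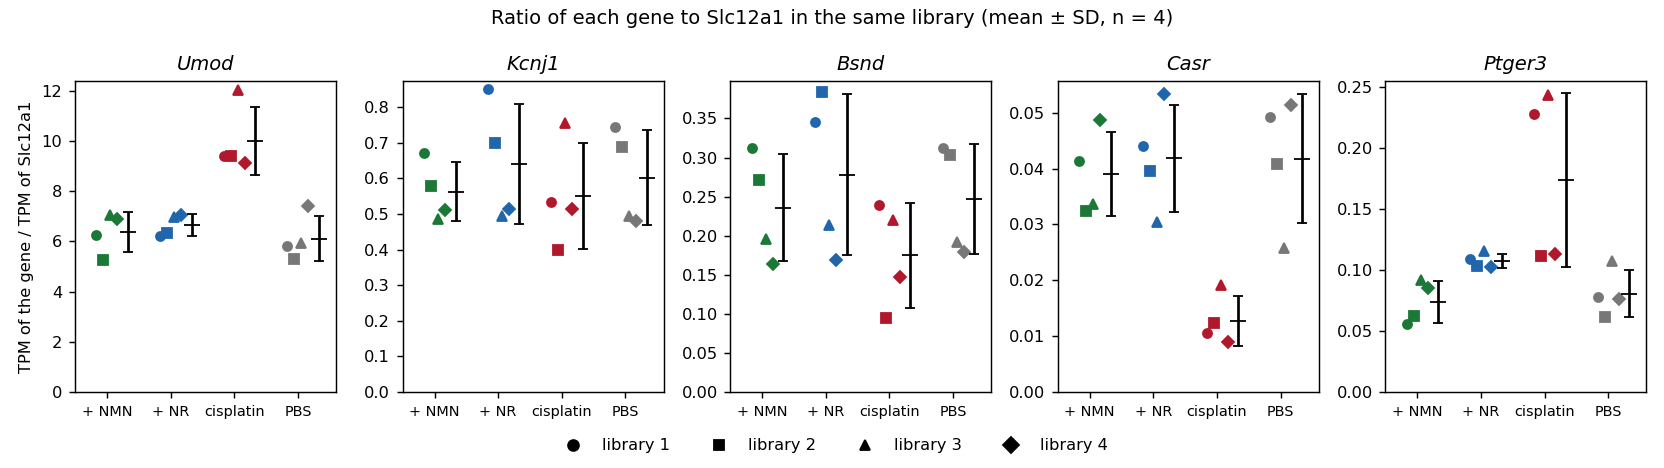
TPM of each gene divided by TPM of Slc12a1 in the same library, by group; shapes give the library number and bars the mean ± SD of 4 libraries. Umod per Slc12a1 is 9.15 or more in the cisplatin libraries and 7.40 or less in all others, and Casr per Slc12a1 lies lowest in the cisplatin libraries.

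Most transcripts of proteins that NKCC2 and ROMK work with were lower in the cisplatin kidneys. Of 9 salt transport partners 8 were tested, and 7 were lower, 0 higher and 1 not called (median log2 change -0.82, beside 0.27 for all genes). The counts of this list and of those that follow stand beside 18.6% of all tested genes called lower and 40.7% higher. Kcnj16, a potassium channel subunit of the blood side, averaged 38.2 ± 5.10 TPM with cisplatin and 147 ± 14.9 with PBS, a log2 change of -1.92. Its partner Kcnj10 averaged 5.53 ± 1.85 TPM with cisplatin and 10.2 ± 2.15 with PBS (-0.82), a call that was lost (adjusted p = 0.0767) without PBS 1, cisplatin 1 and cisplatin 3. Slc9a3, the sodium-proton exchanger shared with the proximal tubule, fell by 2.20 on the log2 scale, and Fxyd2, a subunit of the sodium pump, fell by 0.82.

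The claudins of the paracellular route went different ways. Of 6 genes 5 were tested, with 1 higher, 1 lower and 3 not called. Cldn10, whose limb form lets sodium pass between cells and which the proximal tubule expresses too, averaged 21.1 ± 10.0 TPM with cisplatin and 137 ± 15.4 with PBS (log2 change -2.75, limma adjusted p = 1.02e-08). Cldn3, a sealing claudin, averaged 94.4 ± 3.12 TPM with cisplatin and 12.95 ± 4.69 with PBS (log2 change 2.83). Cldn16 and Cldn19, which carry calcium and magnesium and in humans are mutated in a magnesium-wasting disease, were not called: Cldn16 averaged 6.14 ± 3.17 TPM with cisplatin and 8.27 ± 3.38 with PBS, and Cldn19 averaged 18.0 ± 8.83 with cisplatin and 9.66 ± 2.89 with PBS (limma adjusted p = 0.0598). Tjp1, a scaffold of tight junctions, had a log2 change of 0.46 (limma adjusted p = 0.0701). Cldn14, through which the calcium-sensing receptor is known to act on the claudin pair in mice, reached at most 1.37 TPM in any library and was not tested.

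Regulators of NKCC2 were mixed. Of 10 kinases, phosphatases and their partners 9 were tested, with 3 lower, 2 higher and 4 not called. Wnk1, a kinase upstream of the cotransporter kinases, had a log2 change of -1.15 and Ppp1r1a, an inhibitor of protein phosphatase of the limb, one of -1.20. Wnk1 is also among the genes used below to mark the distal convoluted tubule. Cab39l, a kinase scaffold, fell by 0.72, and Oxsr1, which phosphorylates NKCC2, rose by 0.79. Stk39, its close relative SPAK, averaged 7.84 ± 1.91 TPM with cisplatin and 7.23 ± 0.527 with PBS and was not called (log2 change 0.08, limma adjusted p = 0.721). The call of Nedd4l, a ubiquitin ligase that was higher (log2 change 0.54), was lost under median-of-ratios scaling (adjusted p = 0.253).

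Genes of hormone signals to the limb changed in both directions or were not called. Of 9 tested, 3 were higher, 1 lower and 5 not called. Of these 5, Gnas, a G protein subunit, was called lower under median-of-ratios scaling, quantile scaling and without the mitochondrially encoded genes. Avpr2, a vasopressin receptor, was called lower under quantile scaling. Pth1r, the parathyroid hormone receptor that the proximal tubule expresses strongly, averaged 64.1 ± 6.59 TPM with cisplatin and 399 ± 37.5 with PBS (log2 change -2.62). Calcr, the calcitonin receptor, averaged 3.07 ± 1.36 TPM with cisplatin and 0.248 ± 0.154 with PBS (log2 change 1.65). Gnai2, the inhibitory G protein subunit that EP3 and the calcium-sensing receptor couple to, rose by 1.20, and Gna11, a G protein subunit that the calcium-sensing receptor also uses, rose by 0.52, a call lost under quantile scaling (adjusted p = 0.0753).

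On the prostaglandin side of Ptger3, 5 of 9 tested genes were higher, 1 lower and 3 not called. Beside this, 40.7% of all tested genes were called higher and 18.6% lower. Slco2a1, which carries prostaglandins into cells, averaged 35.1 ± 2.65 TPM with cisplatin and 5.50 ± 1.25 with PBS (log2 change 2.49). Ptgs2, the inducible cyclooxygenase made in the macula densa among other cells, averaged 2.91 ± 1.24 TPM with cisplatin and 0.0475 ± 0.0411 with PBS (log2 change 1.85). Like Calcr, Ptgs2 was below 1 TPM in all PBS libraries and was tested only because it was high in groups given cisplatin. Hpgd, which inactivates prostaglandin E2, averaged 1.42 ± 0.742 TPM with cisplatin and 8.83 ± 2.59 with PBS (log2 change -2.03). Ptger4, another receptor of prostaglandin E2, rose by 0.75, and this call was lost (adjusted p = 0.208) without PBS 1, cisplatin 1 and cisplatin 3. Ptges and Ptges3, both prostaglandin E synthases, were called higher (log2 changes 0.58 and 0.29), but not under median-of-ratios scaling, where Ptges3 changed sign (-0.016). Ptger2 was listed at 0 in all 4 cisplatin libraries and was not tested. Of 5 macula densa genes 2 were tested: Ptgs2, and Avpr1a, a vasopressin receptor, which was not called (log2 change -0.20, limma adjusted p = 0.342). Nos1, the neuronal nitric oxide synthase that marks these cells, was listed at 0 in the 4 cisplatin libraries and averaged 0.38 ± 0.477 TPM with PBS.

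Of 9 genes that handle uromodulin or are enriched in the limb, 5 were lower, 1 higher and 3 not called (median log2 change -1.08). Hpn, the protease hepsin that releases uromodulin into the urine, averaged 132 ± 36.6 TPM with cisplatin and 336 ± 19.2 with PBS (log2 change -1.38). Egf, the epidermal growth factor precursor, made in the limb and in the distal convoluted tubule, averaged 8.41 ± 2.90 TPM with cisplatin and 209 ± 90.6 with PBS (log2 change -4.44). Enpp2, autotaxin, fell by 1.24. Muc1, a mucin, averaged 34.4 ± 16.5 TPM with cisplatin and 7.17 ± 3.69 with PBS (log2 change 2.09).

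Of 13 transcription factors and cofactors active in the limb, 7 were lower, 0 higher and 6 not called, and 10 were lower under median-of-ratios scaling. Lhx1, a nephron-patterning factor, averaged 1.58 ± 0.378 TPM with cisplatin and 6.90 ± 1.83 with PBS (log2 change -1.60). Esrrg, an oestrogen-related receptor, had a log2 change of -0.71, a call lost (adjusted p = 0.0722) without PBS 1, cisplatin 1 and cisplatin 3. Ppargc1a, the mitochondrial coactivator PGC-1alpha, fell by 0.84 and Tfap2b, a distal nephron factor, by 0.76. Without PBS 1, cisplatin 1 and cisplatin 3 only 4 of the 13 were called, and likewise without the 4 libraries numbered 4.

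**Figure D4:**
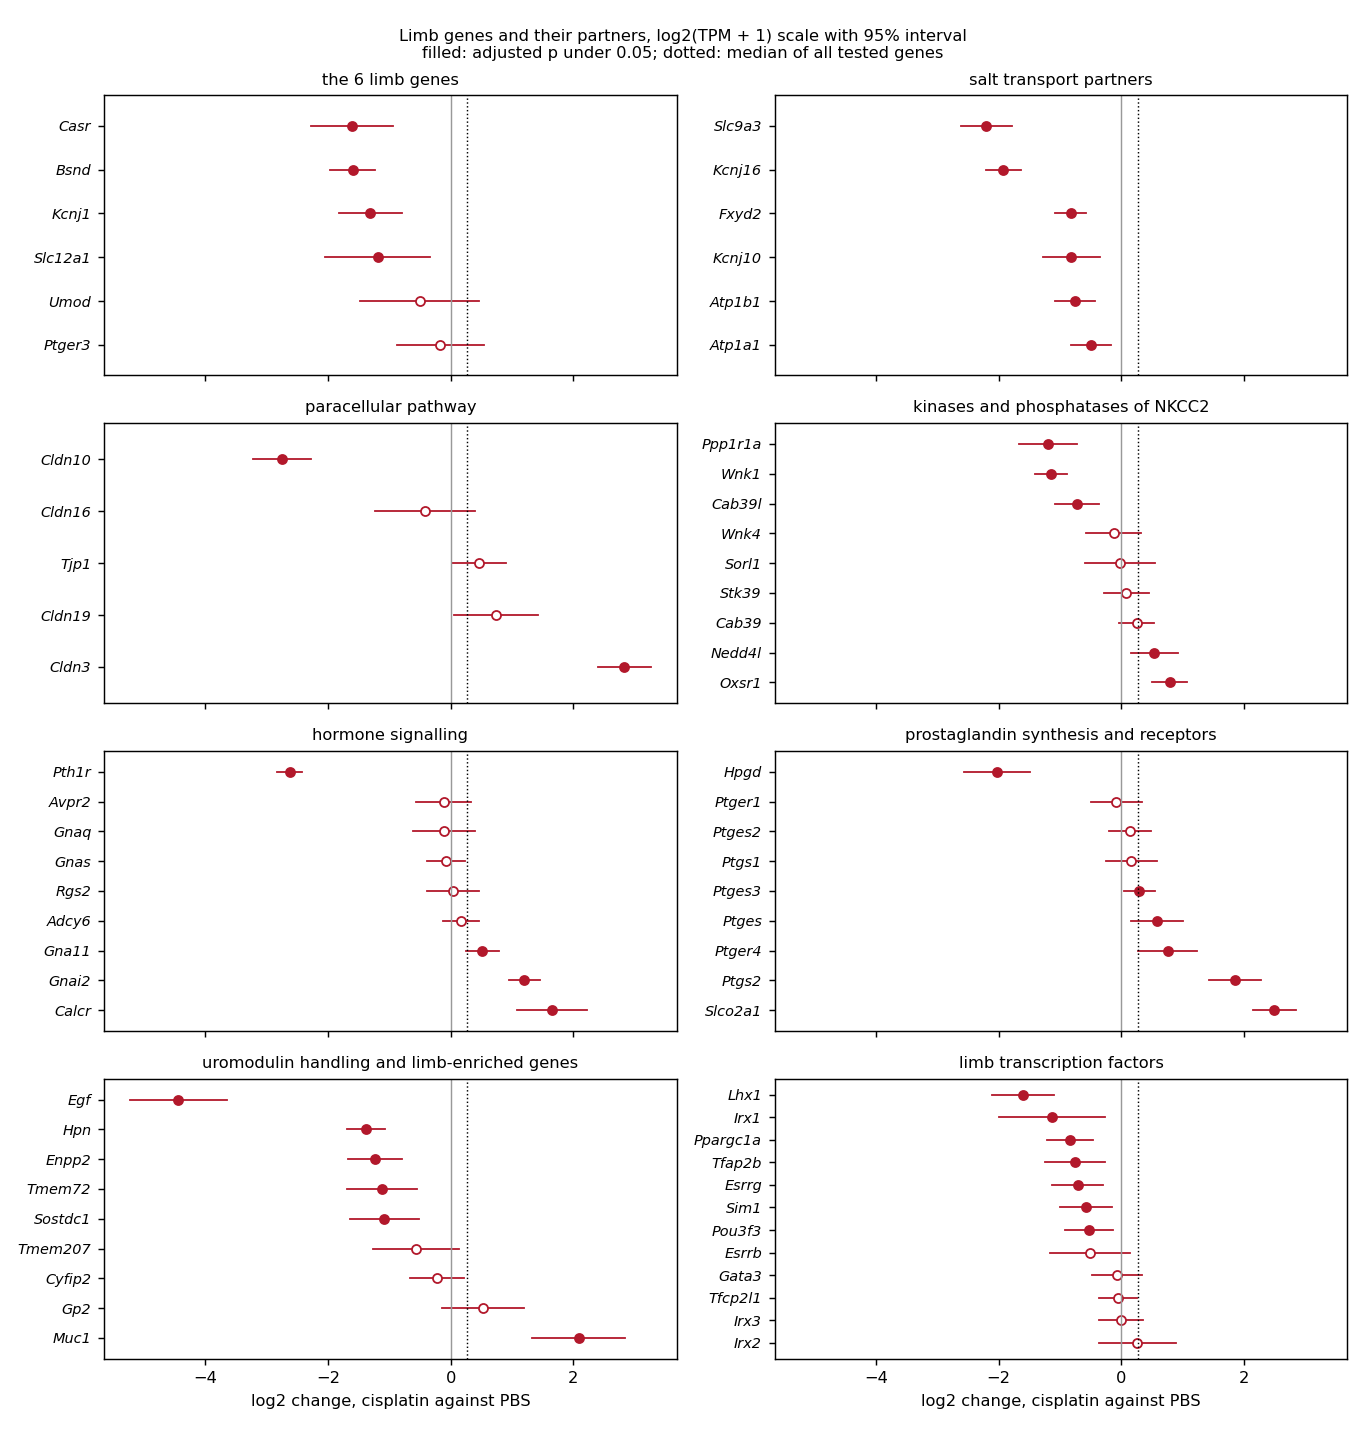
Log2 change in cisplatin against PBS for the 6 limb genes and tested genes of 7 related lists (3 genes are left out), with 95% intervals of the limma fit; filled points have an adjusted p under 0.05 and the dotted line marks the median of all tested genes (0.27). The salt transport partners drawn lie left of 0, whereas the claudins, hormone and prostaglandin lists spread to both sides.

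Neighbouring segments that share some of these genes changed as well. Of 10 genes that mark the distal convoluted tubule 9 were lower, and their summed level ranged over 89.2 to 131 TPM with cisplatin, against 631 to 838 TPM with PBS. Slc12a3, the thiazide-sensitive cotransporter NCC of that segment, averaged 12.6 ± 5.20 TPM with cisplatin and 336 ± 84.0 with PBS, a log2 change of -4.68, beside -1.19 for Slc12a1. Klhl3, an adaptor that degrades WNK kinases, Emx1, a homeobox gene, and Calb1, a calcium buffer, fell by 2.49, 2.31 and 2.99. In the intercalated cell list 7 of 10 were lower and 0 higher (130 to 199.7 TPM summed with cisplatin, against 297 to 426 TPM with PBS). In the principal cell list 2 of 9 were higher and 3 lower (577 to 693 TPM with cisplatin, against 438 to 538 TPM with PBS), and Aqp2, the vasopressin-regulated water channel, averaged 384 ± 35.9 TPM with cisplatin and 168 ± 22.6 with PBS. All markers of these 3 lists were above 0 in at least 1 library of each group. All 12 proximal tubule genes were lower and all 12 injury genes and all 10 genes of handling and RNA quality higher. Under median-of-ratios scaling Dusp1 of the handling list was not called. Called lower as well under that scaling were Trpm6 of the distal convoluted tubule, Atp6v1g3 and Slc4a9 of the intercalated and Scnn1b of the principal cell list. The part of the other cell types, of injury and of handling in the levels of the 6 genes was not tested.

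With NMN, 3 of the 6 limb genes, Kcnj1, Bsnd and Casr, were higher than with cisplatin alone. Of all tested genes 15.1% were called higher (49.1% in either direction), and 22.3% higher under median-of-ratios scaling. The median change of the 6 genes was 0.91, beside -0.23 for all genes. Bsnd measured 14.5, 16.8, 13.03 and 19.1 TPM with NMN, all above the 4 cisplatin libraries, and averaged 15.9 ± 2.68 TPM with NMN and 6.21 ± 1.74 with cisplatin (log2 change 1.25, SE 0.176, limma adjusted p = 1.39e-05). Casr measured 1.92, 2.00, 2.25 and 5.68 TPM with NMN, again without overlap, and averaged 2.96 ± 1.82 TPM with NMN and 0.488 ± 0.236 with cisplatin (log2 change 1.33, SE 0.315, limma adjusted p = 0.00188). Groups did not overlap, with NMN the higher, in 13.4% of all tested genes.

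Kcnj1 measured 31.1, 35.8, 32.5 and 59.7 TPM with NMN, above all cisplatin libraries. It averaged 39.8 ± 13.5 TPM with NMN and 20.8 ± 7.90 with cisplatin (log2 change 0.93, SE 0.245, limma adjusted p = 0.00456), and this call was lost (log2 change 0.47, adjusted p = 0.149) without PBS 1, cisplatin 1 and cisplatin 3. Slc12a1 measured 46.4, 61.8, 66.7 and 117 TPM with NMN and overlapped cisplatin. Its log2 change of 0.89 (95% interval 0.03 to 1.74, limma adjusted p = 0.0794) did not pass, whereas it did under the 3 other scalings of the values: 1.12 by median of ratios (adjusted p = 0.0211), 1.11 by quantiles (0.0215) and 1.08 with the mitochondrially encoded genes removed (0.0365). It also passed without cisplatin 2 (adjusted p = 0.0274) and without cisplatin 4 (0.0485). Umod measured 290.4, 325, 469.8 and 803 TPM with NMN, inside and above the cisplatin range (log2 change 0.25, 95% interval -0.71 to 1.22, limma adjusted p = 0.670). Ptger3 measured 2.58, 3.86, 6.11 and 9.93 TPM with NMN, a wider spread on both sides of cisplatin (log2 change -0.20, 95% interval -0.91 to 0.51, limma adjusted p = 0.645). Neither gene passed.

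With NR the same 3 genes were higher than with cisplatin alone: Bsnd, Casr and Kcnj1. Of all tested genes 14.4% were called higher (46.6% in either direction), and 21.2% higher under median-of-ratios scaling. The median change of the 6 genes was 0.68, beside -0.20 for all genes. Bsnd measured 12.95, 17.7, 12.6 and 15.6 TPM with NR and averaged 14.7 ± 2.404 TPM with NR and 6.21 ± 1.74 with cisplatin (log2 change 1.14, SE 0.176, limma adjusted p = 4.13e-05). Every NR library lay above every cisplatin library, as in 12.7% of all tested genes. Casr measured 1.65, 1.83, 1.79 and 4.95 TPM with NR, also without overlap, and averaged 2.56 ± 1.60 TPM with NR (log2 change 1.18, SE 0.315, limma adjusted p = 0.00513).

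Kcnj1 measured 31.9, 32.4, 29.2 and 47.7 TPM with NR, and the lowest NR library only just exceeded the highest cisplatin library at 29.1 TPM. Its log2 change of 0.78 (SE 0.245, limma adjusted p = 0.0144) was lost without cisplatin 1 (adjusted p = 0.0543), cisplatin 3 (0.0537) or NR 4 (0.0551). Without PBS 1, cisplatin 1 and cisplatin 3, only Bsnd of the 6 genes was called, with adjusted p of 0.329 for Kcnj1 and 0.0676 for Casr. Bsnd was also the 1 gene called without NR 3 and NR 4, which held the most adipose RNA of that group, with adjusted p of 0.0855 for Kcnj1 and 0.0578 for Casr. Slc12a1 measured 37.5, 46.2, 59.0 and 92.7 TPM with NR (log2 change 0.58, 95% interval -0.27 to 1.43, limma adjusted p = 0.251) and overlapped cisplatin. Umod measured 233, 293, 412 and 653 TPM with NR (log2 change 0.02, 95% interval -0.95 to 0.98), and Ptger3 4.10, 4.79, 6.80 and 9.54 TPM (0.01, -0.70 to 0.72). Neither passed (limma adjusted p = 0.982 and 0.986). Summed adipose RNA without Pck1 ranged over 25.6 to 104 TPM with NMN and 23.2 to 393 TPM with NR, against 210.1 to 403 TPM with cisplatin, and its part in the Ptger3 values was not tested.

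In the precursor groups the ratios to Slc12a1 differed from gene to gene. Umod per Slc12a1 was 6.26, 5.27, 7.04 and 6.88 with NMN and 6.23, 6.34, 6.98 and 7.05 with NR, all below the lowest cisplatin library at 9.15. Casr per Slc12a1 was 3.15 times the cisplatin value with NMN and 3.35 times with NR, both without overlap (exact permutation p = 0.0286 each, adjusted p = 0.0952 over the 30 tests). Ptger3 per Slc12a1 averaged 0.0737 ± 0.0173 with NMN, 0.108 ± 0.00578 with NR, 0.174 ± 0.0714 with cisplatin and 0.0808 ± 0.0190 with PBS (SD, n = 4 each). It did not overlap between NMN and cisplatin (exact permutation p = 0.0286, adjusted p = 0.0952), and it overlapped between NR and cisplatin (exact permutation p = 0.0857, adjusted p = 0.234). With NR it was 1.36 times the PBS value, also with overlap (exact permutation p = 0.0857, adjusted p = 0.234).

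Partner genes in the precursor groups are given by their counts against cisplatin, which shares its libraries with the comparison against PBS. Of the 8 tested salt transport partners 7 were higher with NMN and 7 with NR, and 1 was not called with either. Kcnj16 averaged 118 ± 19.2 TPM with NMN and 117 ± 19.5 with NR, against 38.2 ± 5.10 with cisplatin. Cldn10 was higher and Cldn3 lower with each precursor, and the other 3 tested claudin and junction genes were not called. Among regulators of NKCC2, 3 of 9 were higher and 1 lower with NMN, and 2 higher and 2 lower with NR, or 3 higher and 1 lower with each precursor under median-of-ratios scaling. Of the hormone genes, Pth1r was higher and Calcr and Gnai2 lower with each precursor.

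For the prostaglandin list, 1 of 9 genes, Hpgd, was higher and 4 (Ptgs2, Slco2a1, Ptger4 and Ptges3) lower with NMN and likewise with NR. Of all tested genes 34.0% were called lower with NMN and 32.2% with NR. Under median-of-ratios scaling 3 were lower with NMN, without Ptges3, and 2 with NR, without Ptges3 and Ptger4. The Ptges3 call held in 8 of 29 alternatives with each precursor. Ptgs2 averaged 1.03 ± 0.109 TPM with NMN and 1.40 ± 0.293 with NR, against 2.91 ± 1.24 with cisplatin. Of the uromodulin and limb-enriched genes, 5 of 9 were higher and 1 lower with NMN, and 3 higher and 1 lower with NR. Under median-of-ratios scaling 5 were higher with each precursor, Sostdc1 and Tmem72 being gained with NR, and Muc1 was no longer called lower with NR. Hpn averaged 283 ± 25.1 TPM with NMN and 274 ± 18.6 with NR, against 132 ± 36.6 with cisplatin, and Egf 151 ± 78.9 with NMN and 133 ± 63.1 with NR, against 8.41 ± 2.90 with cisplatin. Of the 13 transcription factors 3 (Esrrg, Ppargc1a and Lhx1) were higher with NMN, and the same 3 were higher and Irx2 lower with NR. Under median-of-ratios scaling 6 were higher and 0 lower with each precursor. Slc12a3 averaged 248 ± 68.8 TPM with NMN and 225.5 ± 51.1 with NR, against 12.6 ± 5.20 with cisplatin.

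Against PBS, none of the 6 genes was called with either precursor by limma, where 6.0% of all tested genes were called with NMN (0.116% lower) and 10.0% with NR (1.21% lower). All 6 estimates were below 0 in both comparisons, while the median gene moved by 0.045 with NMN and 0.061 with NR. The share of all tested genes below 0 was not computed. Both comparisons use the same PBS libraries, so these signs are not independent. Without PBS 4 the estimate of Umod with NMN was 0.059, and without PBS 3 that of Ptger3 with NR was 0.037. With NMN the estimates ranged from -0.38 for Kcnj1 to -0.25 for Umod, and 0 of the 6 had an unadjusted p under 0.05. With NR they ranged from -0.61 for Slc12a1 to -0.16 for Ptger3, and 2 of the 6, Kcnj1 (log2 change -0.53, adjusted p = 0.216) and Bsnd (-0.45, adjusted p = 0.121), had an unadjusted p under 0.05. All NR libraries of Bsnd lay below all PBS libraries, and groups did not overlap in 14.8% of all tested genes, 2.99% with NR the lower. Bsnd was called lower with NR under median-of-ratios scaling (adjusted p = 0.0495) and quantile scaling (0.0373).

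NMN and NR were compared for the 6 genes, and the sources used here do not give their doses. No gene was called by limma, 0 of the 6 had an unadjusted p under 0.05, and 0% of all tested genes were called, with 370 at an unadjusted p under 0.05. The log2 difference of NMN minus NR was 0.24 for Umod (95% interval -0.73 to 1.21), 0.30 for Slc12a1 (-0.55 to 1.16) and 0.14 for Kcnj1 (-0.37 to 0.66). It was 0.10 for Bsnd (-0.27 to 0.47), 0.15 for Casr (-0.51 to 0.81) and -0.21 for Ptger3 (-0.92 to 0.50). The limma adjusted p was 1.00 after rounding for each of the 6. The intervals for Umod and Slc12a1 reach above 1 on the log2 scale, so the missing calls do not show that the precursors acted alike. The ratio of Ptger3 to Slc12a1 was 0.670 times as high with NMN as with NR, without overlap (exact permutation p = 0.0286, adjusted p = 0.0952 over the 30 tests).

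Within a group the limb genes moved up and down together from library to library. Library 4 was the highest for 6 of the 6 genes with NMN, for 5 with NR and for 5 with PBS, and with cisplatin library 2 was the highest for 4 genes and library 4 for the other 2. After the group means were removed, the deviations of Umod and Slc12a1 over the 16 libraries had a Pearson r of 0.970 and a Spearman rho of 0.947 (permutation within groups, adjusted p = 0.0002 and 0.00025 over 15 pairs), and r was 0.969 without the 2 libraries farthest from the median. In 12 of the 15 pairs the adjusted p of r was under 0.05, with r from 0.631 to 0.970. The exceptions all held Bsnd: r was 0.520 with Umod, 0.468 with Casr and 0.360 with Ptger3. By Spearman rho and the same permutation, Umod and Bsnd passed (0.621, adjusted p = 0.0312). Slc12a1 and Bsnd did not pass by rho (0.582, adjusted p = 0.0586). The pair of Slc12a1 and Bsnd (r = 0.631) missed the threshold under median-of-ratios scaling (r = 0.56, adjusted p = 0.0732). The share of other gene pairs that move together as closely was not computed. These correlations are thus not shown to be particular to the limb genes. Depth is unknown, and the part of how much medulla a piece of kidney held, or of depth, in these deviations was not tested.

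**Figure D5:**
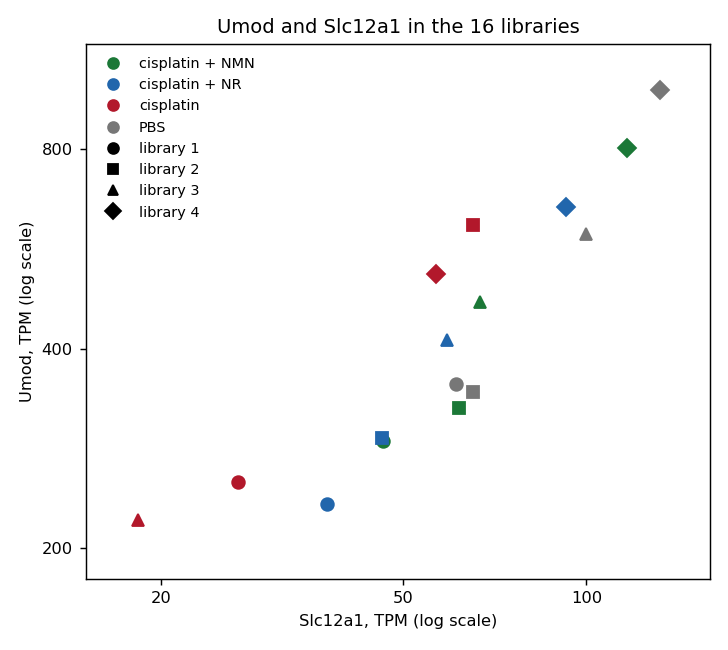
Umod against Slc12a1, both in TPM on log axes, in the 16 libraries; colour gives the group and shape the library number. The NMN, NR and PBS libraries follow 1 band, and the 4 cisplatin libraries lie above it, with 9.15 to 12.1 times as much Umod as Slc12a1.

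Because Umod and Slc12a1 followed each other so closely, the sequence upstream of both is shown (RefSeq start sites, GRCm38.p6). Each line holds 150 bases that begin 250 bases before the start, 5′ to 3′ on the gene's strand, at chr7:119479363-119479512 on the minus strand for Umod and chr2:125152350-125152499 on the plus strand for Slc12a1.
Umod: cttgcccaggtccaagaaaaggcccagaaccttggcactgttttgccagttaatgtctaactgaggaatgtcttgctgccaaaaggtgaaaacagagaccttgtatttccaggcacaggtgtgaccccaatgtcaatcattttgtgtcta
Slc12a1: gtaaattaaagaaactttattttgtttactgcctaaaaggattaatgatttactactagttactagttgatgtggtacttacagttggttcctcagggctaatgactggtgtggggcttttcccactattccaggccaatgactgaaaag
Neither window, nor those of Kcnj1, Casr and Ptger3, held on either strand the oestrogen-related receptor site AAGGTCA (2.51% of 32851 promoter windows of the same length) or the cyclic AMP response element TGACGTCA (0.371%). That says only that these letters were not in these windows, and nothing about a factor. The Kcnj1 window (chromosome 9, 32393735 to 32393884) lies inside the gene span given above, so it precedes an internal start site. No window was at hand for Bsnd.

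Genes most like each of the 6 over the 16 libraries were sought among 8707 other tested genes that averaged at least 5 TPM. Predicted genes (Gm plus digits, Rik) were left out. Nearness was the root mean square distance of log2 profiles centred on their means, with no test. Slc12a1 was nearer to Umod (0.313) than any of these genes but Gpx6, a selenium-free glutathione peroxidase in mice (0.266). Next to Umod came Mfsd4a, a transporter-like protein (0.335), Ptger3 (0.354) and Slc5a6, a vitamin transporter (0.356). Nearest to Slc12a1 were Mme, the peptidase neprilysin (0.289), Kcnj1 (0.292), Sostdc1, a BMP and Wnt antagonist (0.302), and Ptprg, a receptor phosphatase (0.306). Kcnj1 was nearest to Acox3 (0.147), a peroxisomal oxidase, Slc3a1 (0.170), an amino acid transporter subunit, and Ahcyl2 (0.208).

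Bsnd was nearest to Phyh (0.140), a peroxisomal hydroxylase, Col4a4 (0.141), a basement membrane collagen chain, and Mdh1 (0.163), malate dehydrogenase. Casr was nearest to Ptprg (0.233), Mfsd4b1 (0.260), a transporter, and Chdh (0.263), choline dehydrogenase, and Ptger3 to Erlin2 (0.296), Spata2 (0.298) and Mfsd4a (0.303). Phyh averaged 151 ± 27.8 TPM with cisplatin and 422 ± 27.0 with PBS, and Gpx6 averaged 9.75 ± 5.28 TPM with cisplatin and 15.5 ± 7.03 with PBS. Umod and Bsnd were far apart by this measure (0.698), and Bsnd ranked 3717 by nearness to Umod.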

How the data were processed

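The file holds TPM for 23982 entries in 16 libraries, as the authors deposited it. Per the labels' protocols, total RNA of whole kidney was isolated with an RNeasy kit and libraries made with Illumina TruSeq. The submitters' processing notes name Trim Galore, STAR 2.4.1d, HTSeq 0.6.1, DESeq2 1.10.1, GRCm38 and mm10; the sources used here give neither their roles nor whether counting used strand. Depth is unknown, since TPM keeps none; listed values sum to 860428 to 903678 per library.

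Genes that reached 1 TPM in 4 or more libraries were tested in 1 limma 3.58.1 fit of 4 group means (12 residual degrees of freedom, trend and robust empirical Bayes, R 4.3.3) on log2(TPM + 1), with Benjamini-Hochberg adjustment over 12960 genes, tested on simulated data. Comparisons share groups and so are not independent. Ratios were compared by two-sided exact permutation and deviations by 100000 permutations within groups (SciPy 1.17.1). Coordinates are from GENCODE M21 (GRCm38).

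The 6 genes and the lists were chosen with earlier results of these data known. Named genes were the 6, the 4 genes with lowest adjusted p, cisplatin against PBS, from every list described, 14 set genes of limb, distal tubule and collecting duct, and the 3 genes nearest to each of the 6. Genes outside this rule (Nedd4l, Ptges, Ptges3, Irx2, Ptger2, Nos1, Gnas, Avpr2, Tmem72, Trpm6, Dusp1, Atp6v1g3, Slc4a9, Scnn1b, Akr1b3, Acta2 and Cnn1) were named after their values were seen. Some genes under this rule are not reported here, though list counts include them. Alternatives changed pseudocount, filter, scaling, moderation, weights, samples and the replicate block.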

Additional observations from a re-analysis of the deposited data

Results flagged for a closer look

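Of 24 sets of 4 libraries (6 genes in 4 groups), 4 held a library whose gap to its nearest neighbour was a larger share of the group's range than Dixon's 95% critical value. Chance gives about 1 in 20. All 4 were libraries numbered 4, and all were the highest of their group. For Casr the share was 0.871 with NMN (5.68 TPM), 0.919 with NR (4.95 TPM) and 0.858 with PBS (6.81 TPM). For Bsnd in PBS it was 0.835 (23.7 TPM). Without all libraries numbered 4, the log2 change of Casr in cisplatin against PBS was -1.35 (limma adjusted p = 6.63e-05). Casr entered the test only through the groups where it was high, so this call says nothing beyond its values.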

How the results depend on the processing

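Each result was recomputed under 29 alternatives, of which those leaving out PBS 1, cisplatin 1 and cisplatin 3, NR 3 and NR 4, or all libraries numbered 4 were chosen after seeing the data. As counts, the 4 calls in cisplatin against PBS and the 3 in NMN against cisplatin stayed within 1.5 times under every alternative. Single calls were lost without PBS 1, cisplatin 1 and cisplatin 3: Slc12a1 in cisplatin against PBS and Kcnj1 in NMN against cisplatin. The Slc12a1 call was also lost without PBS 4, cisplatin 1 or cisplatin 3 alone. In NR against cisplatin 1 gene in place of 3 was called without PBS 1, cisplatin 1 and cisplatin 3, and 1 without NR 3 and NR 4. In NR against PBS 1 was called under median-of-ratios scaling, 1 under quantile scaling and 2 with the replicate block, in place of 0. Casr was not tested at a minimum of 5 TPM. The cause of these changes was not tested.

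Small changes turned sign. In NMN against cisplatin these were Ptger3 (0.0011) under median-of-ratios scaling and Umod (-0.37) without PBS 1, cisplatin 1 and cisplatin 3. In NR against cisplatin they were Umod (-0.18) and Ptger3 (-0.038) with array weights; Umod (-0.61), Slc12a1 (-0.13) and Ptger3 (-0.16) without those 3 libraries; Umod (-0.48) and Ptger3 (-0.36) without NR 3 and NR 4; and Umod (-0.091) and Ptger3 (-0.16) without libraries numbered 4. Ptger3 in NMN against NR was 0.16 without NR 3 and NR 4, and Ptges3 in cisplatin against PBS was -0.016 under median-of-ratios scaling.

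Leaving out 1 library at a time, Ptger3 ranged from -0.38 to 0.028 in cisplatin against PBS, -0.49 to 0.051 in NMN and -0.19 to 0.16 in NR against cisplatin, -0.37 to 0.037 in NR against PBS and -0.49 to 0.042 in NMN against NR. Umod ranged from -0.041 to 0.50 in NMN and -0.26 to 0.27 in NR against cisplatin, -0.54 to 0.059 in NMN against PBS and -0.056 to 0.51 in NMN against NR. In NMN against NR, Kcnj1 ranged from -0.065 to 0.29 and Casr from -0.13 to 0.43.

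Over all genes, 511 were called in NMN against PBS without NMN 3, in place of 778. In NR against PBS 698 were called without NR 3 and NR 4 and 808 without libraries numbered 4, in place of 1296. In NMN against NR 1 was called with only those groups fitted, in place of 0.

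No label says what a library number marks, and in no comparison did every same-numbered pair of deviations correlate above 0.1, so the numbers were not taken to pair the samples. The correlations were -0.13 to 0.026 for cisplatin and PBS, 0.048 to 0.287 for NMN and PBS, 0.05 to 0.27 for NR and PBS and 0.07 to 0.226 for NMN and NR. As a hint from the data and not the design, 7 of 8 libraries of NMN and PBS, 6 of 8 of NR and PBS and 8 of 8 of NMN and NR correlated best with their own number. With the replicate block, Slc12a1 was called in NMN against cisplatin (adjusted p = 0.0136), and Kcnj1 (0.0282) and Bsnd (0.039) in NR against PBS.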

Other observations

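Cells outside the tubule segments above were surveyed with marker lists, in cisplatin against PBS. All 8 endothelial, 6 podocyte and 5 tested fibroblast genes were lower (limma, median log2 changes -1.70, -1.65 and -1.69), as were 5 of 8 pericyte and smooth muscle genes. Cisplatin 1 was the highest cisplatin library in the sum of each of these lists. Its podocyte sum was 81.6 TPM, against 21.6 to 22.4 in cisplatin 2 to 4 and at least 81.8 with PBS. Its endothelial sum was 56.1 TPM, against 17.4 to 21.8 in cisplatin 2 to 4 and at least 102.7 with PBS. Its fibroblast sum of 35.7 TPM lay above the lowest PBS library at 28.1. Of 8 macrophage genes 2 were higher (Cd68 and Cd14) and 1 lower (Csf1r). In the list of the thin limb, which joins the thick ascending limb, 5 of 6 tested genes were higher and 1, the water channel gene Aqp1, lower. Several are made in other cells too. Of all tested genes 40.7% were called higher, and the call of Akr1b3 in this list was lost under median-of-ratios scaling. Of 6 urothelial genes 1 was tested, the keratin gene Krt5, which was listed at 0 in all 4 PBS libraries and averaged 5.57 ± 1.38 TPM with cisplatin (SD, n = 4). It passed the minimum only through the groups given cisplatin, so its call says nothing beyond these values.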
